A study of Saccharomyces cerevisiae with 4 samples.

Results

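Of 59030 nucleosome intervals listed for wild-type (WT) budding yeast more than 20 kb from the chromosome ends, 3184 carried an H4K16ac read count under 221, which is below 0.5 times the table median of 442 counts. These low WT intervals are described here. They were selected on the WT count itself, so their low WT values, their number (5.39% of the intervals, by the rule) and the rows they form are a description and not a result of a test. A further 150 intervals under the same count lay within 20 kb of an end and are not members. The second table, from cells labelled nhp6ab, had no part in the choice and gave a second reading of the same places. Both tables come from the same assay and genome build. How far features shared by the tables, such as reads with several matches, lower both was not tested. Each low WT interval was given the nhp6ab interval with the nearest midpoint within 50 bp as its partner.

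H4K16ac, the acetylated form of lysine 16 of histone H4, is laid down over much of the yeast genome by the SAS complex and removed at silenced loci by the deacetylase Sir2. The charge that the acetyl group removes lies in the H4 tail, which contacts neighbouring nucleosomes and, in yeast, the silencing protein Sir3. Nhp6A and Nhp6B are small DNA-bending proteins of the HMGB family that act with the histone chaperone FACT, which loosens and rebuilds nucleosomes during transcription. Transcribed gene bodies are known to lose and exchange histones, and promoters of many active genes hold a stretch that is poor in nucleosomes.

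The study profiled H4K16ac by chromatin immunoprecipitation and sequencing in nhp6ab cells, whose label carries the names of the NHP6A and NHP6B genes, and in WT cells. Both were in exponential phase in YPD, a rich glucose medium, and their chromatin was crosslinked with formaldehyde and sheared by sonication before precipitation with an antibody against H4K16ac. The titles name 2 replicates per genotype, 4 libraries in all, and each table holds 1 count column for the genotype. With no value per replicate, differences between the genotypes could not be set against replicate error. No test was made between them, and the intervals given cover counting error only. The labels describe neither the alleles nor the strain background.

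The nhp6ab table listed 57674 intervals with 20293261 counts and a median of 354, and the one from WT cells listed 60557 intervals with 26526939 counts. To set the tables side by side, a level is the count of an interval divided by the median of its own table, and low means a level under 0.5, or under 177 counts in nhp6ab. Neither input nor histone H3 was used here, so fewer acetylated tails, fewer nucleosomes and less recovered chromatin cannot be told apart in a low count. Over NHP6A the single listed interval had 260 counts in nhp6ab (level 0.73), against 592 in WT (1.34). Over NHP6B the 2 listed intervals had levels of 0.89 and 0.71 in nhp6ab and of 0.76 and 1.24 in WT, so reads fell on both genes in both tables and the counts do not check the genotype. Chromosome XII stood apart in nhp6ab, with a median level of 1.29 in nhp6ab and 0.98 in WT, against 0.98 and 1.00 on the other chromosomes, and results that rest on it are marked.

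The cut at 0.5 times the median passes through a continuous range. Just inside it lay intervals in PDR5, FAS2 (the alpha subunit of fatty acid synthase) and ASN1 (asparagine synthetase), with 56, 214 and 246 counts at their partners in nhp6ab and 220 counts each in WT. Just outside were an interval in TBS1, with 237 counts at its partner in nhp6ab and 221 in WT, and intervals upstream of ADP1 and CWH43, which had no partner and 221 counts in WT. In all, 31 intervals had 220 counts and 53 had 221. The members had a median of 174 WT counts (interquartile range 140 to 199), which is a level of 0.39, and the lowest had 38. A count at the members' median carries a counting error of 7.58%. A cut at 0.4 times the median would take 1655 intervals and one at 0.6 times 5580.

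Places low in WT were mostly low in nhp6ab as well. A partner was found for 2366 of the 3184 members (74.3%), against 85.4% of the intervals that were not low, at a median distance of 13 bp and 11 bp. The partners of members had a median nhp6ab level of 0.37 (interquartile range 0.23 to 0.50), and those of the other intervals 1.03. Of the members' partners, 1777 (75.1%) were themselves low, against 2.09% of the partners of the other intervals and 5.54% of all partners. Only 7 partners of members reached the nhp6ab median. The partners of members were thus concentrated at the low end of the nhp6ab table. Neighbouring intervals overlap and share reads, so they are not independent measurements.

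**Figure D1:**
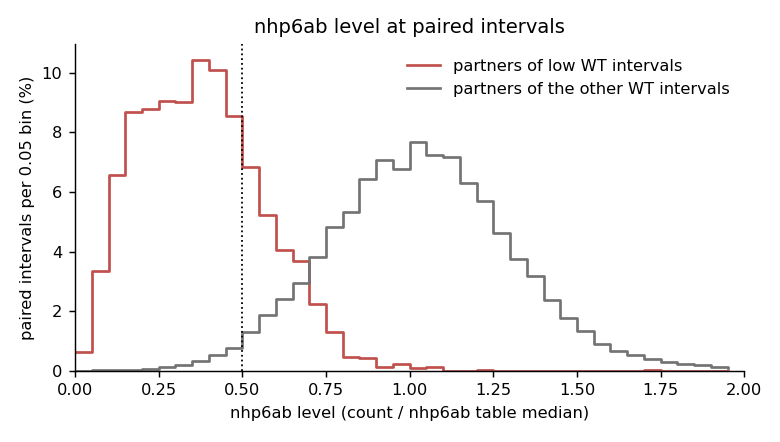
Distribution of the nhp6ab level (count over the nhp6ab table median, bins of 0.05) at the partners of low WT intervals and at the partners of the other WT intervals, each as a percentage of its own set. The dotted line marks the level of 0.5; 75.1% of the members' partners and 2.09% of the others lie below it.

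The nhp6ab level followed the WT level in steps. Members with a WT level under 0.2 had partners with a median level of 0.16 in nhp6ab, and all 93 of these partners were low. At WT levels of 0.2 to 0.3, 0.3 to 0.4 and 0.4 to 0.5, the nhp6ab median was 0.20, 0.33 and 0.45, and 97.9%, 84.6% and 59.0% of partners were low. Intervals just above the cut, at WT levels of 0.5 to 0.6, had partners at 0.58, of which 28.7% were low, and at 0.6 to 0.7 the share was 9.99%. The nhp6ab values thus changed gradually across the count that defines the members.

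The log2 ratio of nhp6ab to WT, after scaling to the table totals, had a median of -0.01 over the paired members and 0.04 over the other pairs. The ratio of a member contains the WT count that selected it, which raises it. That shift does not act towards low ratios. The spread of the ratios was not tested, so nothing is read from their centre or tails. Ratios of at least 1 were found for 53 paired members (2.24%), against 0.305% of all pairs, and ratios of -1 or below for 231 (9.76%), against 0.753% of all pairs. Of the 53, 19 lay on chromosome XII, where 229 members were paired. Low counts also spread more widely on the log scale than counts near the median.

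Most low WT intervals lay inside open reading frames, but they were sparse there and dense elsewhere. Inside open reading frames were 1811 members (56.9%), where 82.4% of all WT intervals lay, so that 3.73% of the intervals there were low. Upstream sequence, up to 500 bp before an open reading frame, held 829 members, 26.0% of the members against 11.7% of all WT intervals. The share of low intervals upstream was 18.3% in nhp6ab and 12.1% in WT. Other intergenic sequence held 11.3% of the members, with 459 of 2861 intervals low in nhp6ab and 361 of 3165 (11.4%) in WT, and noncoding genes and pseudogenes held 183.

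The arrangement of the flanking genes went with the share of low intervals between genes. Between divergent genes, where both neighbours start, 21.1% of intervals were low in nhp6ab and 13.9% in WT. Between genes in tandem the shares were 16.6% in nhp6ab and 11.1% in WT. Between convergent genes, where both neighbours end, they were 7.99% in nhp6ab and 7.76% in WT. Both tables had the same order, and in both the stretches that hold promoters had the higher share.

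**Figure D2:**
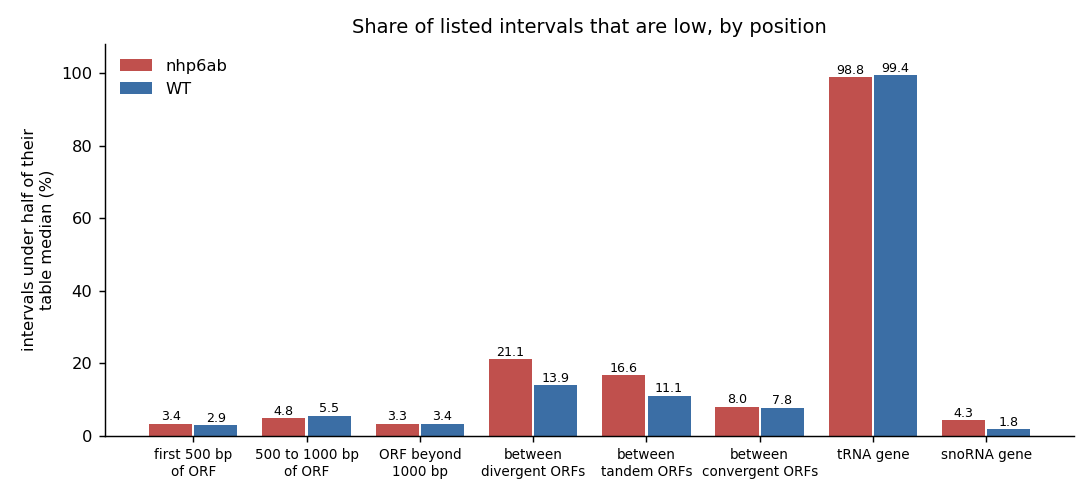
Percentage of listed intervals whose count is under 0.5 times their table median, by position, in nhp6ab (red) and WT (blue); the stretches between open reading frames are divided by the direction of the flanking genes. Transfer RNA genes stand at 98.8% in nhp6ab and 99.4% in WT, and the stretches between divergent genes at 21.1% and 13.9%.

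Members outside genes and members inside genes had different values in nhp6ab. The upstream partners had a median nhp6ab level of 0.30, and 87.0% of them were low. Inside open reading frames the partners were at 0.41 in the first 500 bp, 0.43 from 500 to 1000 bp and 0.44 beyond 1000 bp, and 67.8%, 65.5% and 63.8% of them were low. The WT levels of the same classes were close to each other, at 0.40 upstream and 0.41, 0.40 and 0.41 along the open reading frame. In other intergenic sequence the partners had a median nhp6ab level of 0.27, 86.2% of them were low, and the WT level of the members was 0.37. Members outside genes, upstream or not, were therefore lower in nhp6ab than members inside genes. This split was not particular to the members. Among intervals that were not low, partners were at 0.93 upstream and 0.94 in other intergenic sequence, and 6.70% and 5.80% of them were low. Along the open reading frame they were at 1.11, 1.06 and 0.99, and 1.33%, 1.29% and 1.26% were low. Of 583 paired upstream members, 103 (17.7%) had a log2 ratio of -1 or below and 4 a ratio of at least 1. Among paired upstream intervals that were not low the shares were 1.34% and 0.0609%. Of the other intergenic members 21.5% had a ratio of -1 or below, against 1.82% of those that were not low. A member's ratio contains the WT count that selected it, which raises it. The causes of the low ratios were not tested, and nothing is read from these shares. The members whose partner was low were upstream in 28.5% of cases, and those whose partner was not low in 12.9%. Over all listed nhp6ab intervals, 18.3% of those upstream were low, against 6.22% at any position.

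The lowest ratios among paired members with at least 100 counts over both tables lay upstream of genes in 4 of 6 cases. Those at YLR111W overlap each other and share reads, and an upstream interval is named after the nearest open reading frame start. Upstream of HXT3, a low-affinity glucose transporter gene, the interval at IV:1165079-1165239 had 6 counts in nhp6ab at its partner, against 116 in WT, a log2 ratio of -3.89 (95% interval -5.36 to -2.72). The interval upstream of YLR111W at XII:370310-370468 had 8 counts in nhp6ab and 123 in WT (-3.56), and its neighbour at 370190 to 370350 had 14 in nhp6ab and 136 in WT (-2.89). Upstream of BAP3, an amino acid permease gene, the partner had 20 counts in nhp6ab, against 196 in WT (-2.91). Of the 6 lowest, an interval in NAT4, an N-terminal acetyltransferase gene that targets histones H4 and H2A, was inside an open reading frame, with 11 counts in nhp6ab and 121 in WT (-3.07). The last lay between genes on chromosome XIII, with 14 counts in nhp6ab and 153 in WT. These places were low in WT and held very few reads in nhp6ab.

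Among the 6 highest ratios, 4 lay on chromosome XII. The interval in ICT1, a lysophosphatidic acid acyltransferase gene, had 617 counts in nhp6ab (level 1.74) and 220 in WT (0.50), a log2 ratio of 1.87 (1.65 to 2.10). That upstream of RPS22B, a gene of the small ribosomal subunit, had 151 counts in nhp6ab and 55 in WT (1.84). The interval in BDF1 had 312 counts in nhp6ab and 130 in WT (1.65). An intergenic interval on the same chromosome had 434 counts in nhp6ab and 213 in WT. The other two were in FAS1 on chromosome XI, with 380 counts in nhp6ab and 161 in WT (1.63) and with 320 in nhp6ab and 138 in WT (1.60).

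Along open reading frames of 1 kb or more, low intervals were rare at both ends and more frequent in the middle. When each was divided into 10 equal parts, the share was 2.57% in nhp6ab and 2.51% in WT in the first. It reached 4.87% in nhp6ab in part 4 and 5.89% in WT in part 5. In the last it was 2.09% in nhp6ab and 1.82% in WT. Both tables thus had their highest share well inside the gene.

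**Figure D3:**
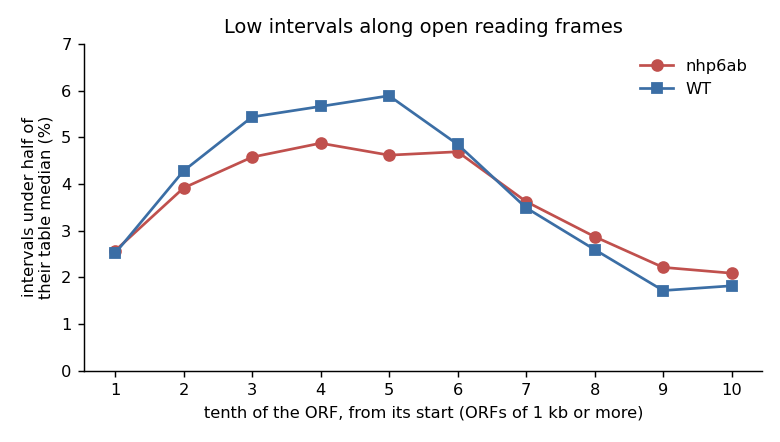
Percentage of intervals under 0.5 times their table median in each of 10 equal parts of open reading frames of 1 kb or more, numbered from the start, in nhp6ab (red circles) and WT (blue squares). The WT curve peaks at 5.89% in part 5 and is at 1.72% in part 9; the nhp6ab curve peaks at 4.87% in part 4.

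Genes for transfer RNA, short units transcribed by RNA polymerase III and bound along their length by its factors, were low almost without exception. Of the intervals centred on a tRNA gene outside open reading frames, 161 of 163 were low in nhp6ab and 167 of 168 in WT, with median levels of 0.18 in nhp6ab and 0.27 in WT. The tRNA genes thus held 5.24% of the members on 0.285% of the WT intervals. Genes for snoRNAs, which guide modification of ribosomal RNA, were not of this kind. Outside open reading frames, 2 of 47 of their intervals were low in nhp6ab and 1 of 55 in WT. With snRNA genes and those inside open reading frames included, 10 of 66 were low in nhp6ab and 9 of 75 in WT. Within 500 bp of a tRNA gene, 28.5% of 976 intervals were low in nhp6ab and 24.5% of 1019 in WT. Their median levels were 0.86 in nhp6ab and 0.93 in WT. This window includes the tRNA genes themselves, which gave 161 of its 278 low intervals in nhp6ab and 167 of its 250 in WT. The shares are thus not those of the flanks alone. Many tRNA genes have near-identical copies, so reads over them may not be placed with certainty. The part of this in the result was not tested.

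Of the 12 lowest members, 6 lay on or within 500 bp of tRNA genes. The lowest was at XI:202823-202983, beside the tRNA gene YNCK0007W, with 34 counts in nhp6ab at its partner and 38 in WT. EMT4 and EMT1, copies of the gene for elongator methionine tRNA, were low too: EMT1 had 70 counts in nhp6ab and 60 in WT, and EMT4 had no partner and 40 in WT. Over YNCB0004W the counts were 17 in nhp6ab and 61 in WT. An interval beside a tRNA gene on chromosome XV had 40 counts in WT, and one over the tRNA gene YNCC0014W had 58, both without a partner.

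The other low extremes were 3 intervals in PDR5 and 1 each at HMRA1, RPS22B and TDH3. The interval in HMRA1, part of the silent mating-type copy HMR where Sir2 keeps H4K16 unacetylated, was at III:294117-294277, with 21 counts in nhp6ab and 48 in WT. It was the single interval listed over that gene. HMR shares sequence with MAT, the active locus, and how far their reads can be separated was not tested. The labels do not give the mating type. The interval lay 22.0 kb from the chromosome end, just beyond the margin of the rule. The interval in TDH3, the main glyceraldehyde-3-phosphate dehydrogenase gene, had 88 counts in nhp6ab and 57 in WT, and it too has close paralogues. Of the 17 genes that encode Sir proteins and other silencing factors, 1 in WT held 3 or more members in a row, HST1, a deacetylase related to Sir2, and none had such a run in nhp6ab.

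Members often came in rows. The 3184 members formed 1598 runs of consecutive listed intervals: 968 stood alone, 324 runs had 2, and 306 runs had 3 or more. The runs of 3 or more held 1568 members (49.2%), and 73.3% of these lay inside open reading frames, against 38.2% of the single members and 82.4% of all WT intervals. The longest had 31 members, and 21 runs had 10 or more. Both shares were below that of all intervals, the single members' share further so.

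Single members have neighbours above the cut by definition in WT, and the nhp6ab values around them were not used in the choice. At single members outside open reading frames the median level was 0.29 in nhp6ab, over 431 partners, and 0.40 in WT, over 598 members. The next listed WT interval on either side was at 0.84 and 0.82, and the nhp6ab partners of these neighbours were at 0.80 and 0.78. At single members inside open reading frames the median was 0.54 in nhp6ab, over 260 partners, and 0.45 in WT, over 370 members. The WT neighbours were at 0.63 and 0.64, and their nhp6ab partners at 0.66 and 0.64. A distance over 300 bp to a neighbouring midpoint was found beside 38.9% of single members, 18.5% of members in runs of 3 or more and 17.1% of intervals that were not low.

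Inside 1 open reading frame, 3 or more members in a row were found in 172 of the 4983 protein-coding genes with at least 3 listed intervals (3.45%, by the rule). The number follows the cut, with 87 genes at 0.4 and 328 at 0.6 times the median, and it was 30 when intervals that overlap a neighbour were removed. These 172 genes held 65.0% of the members inside open reading frames. Their median length was 1873.5 bp, against 1335 bp for all genes with at least 3 listed intervals, and a longer gene has more intervals in which a run can occur. The same count made on the nhp6ab table gave 181 of 4976 genes (3.64%). Both tables had such a run in 125 genes, which is 69.1% of the nhp6ab genes and 72.7% of the WT genes. On chromosome XII, where nhp6ab levels were raised, 9 of 19 WT genes with a run also had one in nhp6ab, and on the other chromosomes 116 of 153.

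The longest run lay over PDR5 (YOR153W, XV:619840-624375), the gene of the main ATP-dependent drug efflux pump of the plasma membrane. Inside the gene, 27 of 27 listed intervals were low in nhp6ab and 31 of 32 in WT, with median levels of 0.17 in nhp6ab and 0.26 in WT. The longest WT run in the gene held 27 intervals with 42 to 201 counts, and their 17 partners had 41 to 103 counts in nhp6ab. The WT minimum of 42 counts (exact Poisson 95% interval 30.3 to 56.8) lay 1052 bp into the open reading frame. The tables differed towards the end of the gene. The nhp6ab intervals from 2770 bp on had 41 to 107 counts, and the WT intervals from 2715 bp on had 119 to 269. The low stretch went on upstream of the gene, with 12 to 71 counts in nhp6ab at midpoints from -757 to -251 bp and 84 to 164 in WT from -677 to -252 bp, and it ended behind the gene, where the next intervals had 471 counts in nhp6ab and 553 in WT.

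Other transporters of the same drug resistance network had shorter runs. YOR1, an oligomycin efflux pump, had 15 of 26 intervals low in nhp6ab and 16 of 24 in WT, with a WT run of 14. SNQ2, a further ABC pump, had 15 of 27 low in nhp6ab and 16 of 30 in WT, with a WT run of 11. Of 9 such ABC transporter genes with listed intervals, 3 had a run in nhp6ab and the same 3 in WT, where 3.26% and 3.09% of all protein-coding genes with a listed interval had one. This list was written after the values had been seen, around genes with long runs, and its count is no independent evidence.

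Several large subunits of RNA polymerases had runs. RPO21, the largest subunit of RNA polymerase II, had 19 of 34 intervals low in nhp6ab and 23 of 32 in WT, with a WT run of 18 that spanned 166 to 3053 bp from the start. The 16 partners had a mean of 137 counts in nhp6ab (level 0.39), where the WT mean level of the same intervals was 0.29. RPB2, the second-largest subunit, had 16 of 21 low in nhp6ab and 20 of 24 in WT, and its 12 partners were all low. RPA135, of RNA polymerase I, had 12 of 21 low in nhp6ab and 9 of 21 in WT. Of 31 polymerase subunit genes, 4 had a run in nhp6ab and the same 4 in WT, a list likewise written after the values had been seen, to be read against the same 3.26% and 3.09%.

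Of the translation factor genes, 6 were among the 30 with the longest runs. YEF3, the fungal elongation factor 3 that helps release the used tRNA from the ribosome, had 16 of 21 intervals low in nhp6ab and 21 of 25 in WT, with a WT run of 17 whose counts were 66 to 181. Its 14 partners had 29 to 198 counts in nhp6ab and a mean level of 0.22, and the WT mean level of the same intervals was 0.25. YEF3 lies on chromosome XII, so its nhp6ab level was low against a raised surrounding. TEF4, a subunit of elongation factor 1B, was low in 8 of 8 intervals in nhp6ab and 9 of 9 in WT. RPG1 and NIP1, subunits of the initiation factor eIF3, had 14 of 20 and 10 of 12 low in nhp6ab, against 14 of 20 and 9 of 12 in WT. DED1, the helicase that unwinds mRNA leaders during scanning, had 7 of 11 low in nhp6ab and 12 of 14 in WT. FUN12, the factor that joins the ribosomal subunits, had 7 of 17 low in nhp6ab and 12 of 19 in WT.

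**Figure D4:**
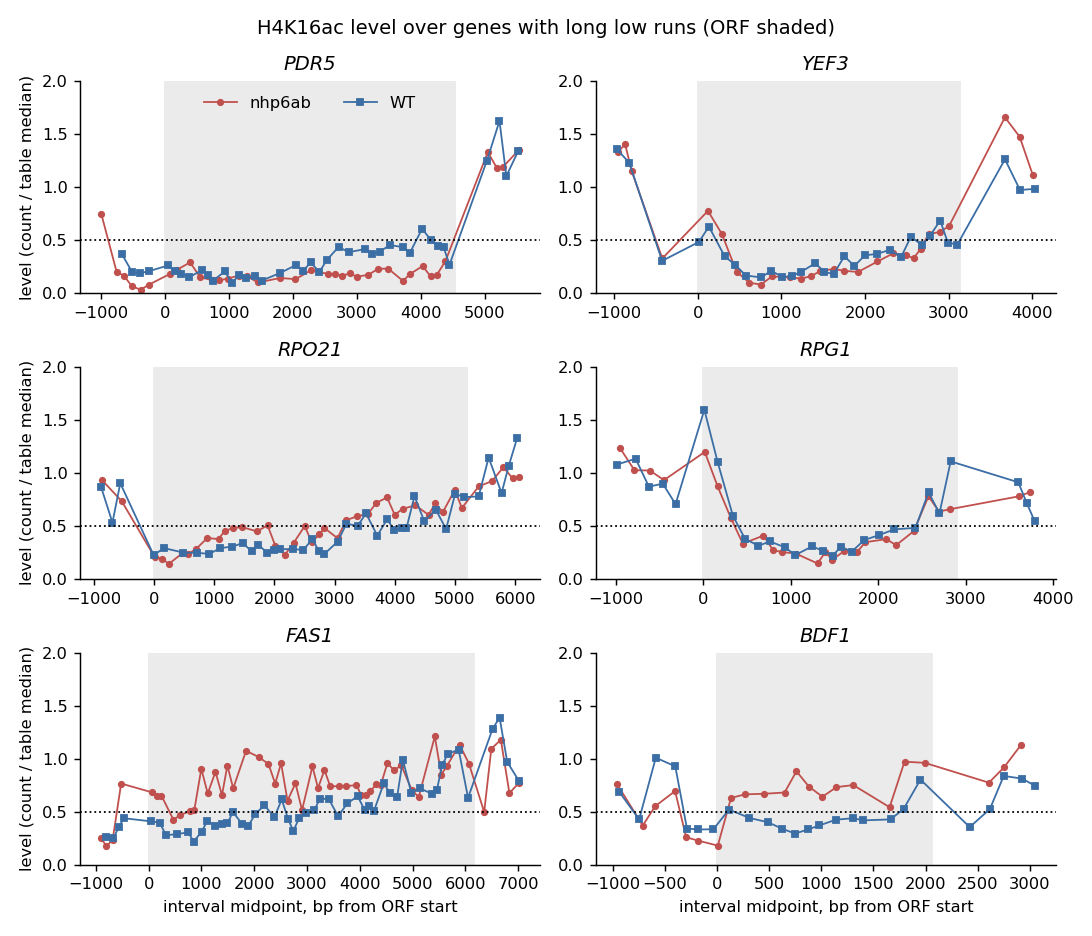
H4K16ac level (count over the table median) of every listed interval along 6 genes with long runs, against the distance in bp of its midpoint from the open reading frame's first base, in nhp6ab (red circles) and WT (blue squares); the open reading frame is shaded and the dotted line marks 0.5. Most levels inside PDR5, YEF3 and RPG1 are low in both tables, but those at both ends of RPG1 lie above 0.5. In FAS1 and BDF1 most nhp6ab points lie above the WT points.

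By list, elongation factors had a run in 3 of 8 genes in nhp6ab and 3 of 7 in WT, initiation and termination factors in 13 of 29 and 10 of 29, and ribosome biogenesis factors in 27 of 78 and 28 of 78. Factors of mRNA processing and export had one in 7 of 22 genes in nhp6ab and 9 of 22 in WT. For all protein-coding genes with a listed interval the counts were 181 of 5558 in nhp6ab (3.26%) and 172 of 5566 in WT (3.09%). Except for the elongation factors, these lists were written after the values had been seen, with genes from among those with runs in mind. The elongation factor list was planned, but with earlier results of these data known. The counts of all these lists are therefore no independent evidence. Examples with a WT run of 9 are DBP2, an RNA helicase gene with 9 of 12 intervals low in nhp6ab, NOG1, a GTPase of large ribosomal subunit assembly with 10 of 13, and NAB2, a nuclear poly(A)-binding protein with 8 of 10.

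Ribosomal protein genes are short and hold few intervals. Of their intervals, 25.3% were low in nhp6ab and 29.8% in WT, where all protein-coding genes had 3.68% and 3.72%. A run was found in 17 of 133 genes in nhp6ab and 16 of 131 in WT, 9 of them shared. RPS16A and RPL16B held most members when 500 bp upstream were included, with 5 of 7 and 8 of 9 intervals low in nhp6ab and 7 of 9 in WT for each. Most ribosomal protein genes exist as near-identical pairs, and how far the reads of such pairs can be separated was not tested. That question does not bear on ribosomal protein genes without a pair.

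For the other lists the counts are read beside the shares of all protein-coding genes, 3.26% in nhp6ab and 3.09% in WT, and most rest on 1 or 2 genes. Histone genes had none in either table, with 0 of 26 intervals low inside the genes in each. Middle sporulation genes, which are silent in growing cells, had a run in 1 of 32 genes in nhp6ab and 1 of 32 in WT, and 5.88% of their intervals were low in nhp6ab and 3.11% in WT. Glycolytic and fermentation genes had a run in the same 2 of 23 genes in both tables, among them CDC19 (pyruvate kinase), with 5 of 12 intervals low in nhp6ab and 6 of 10 in a row in WT. Hexose transporters had none of 14 in nhp6ab and 1 of 14 in WT, HXT3, where nhp6ab had 2 listed intervals, both low, and so could not have a run of 3. Chaperones had 1 of 23 in nhp6ab and 2 of 23 in WT, cell wall mannoprotein genes 2 of 29 and 1 of 29, and galactose and phosphate genes 1 of 13 in each. Mating-type genes had 1 of 13 in each table, not the same gene.

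The synthetase and proteasome lists were also written after the values had been seen and give no independent evidence. Cytosolic aminoacyl-tRNA synthetases had a run in 2 of 19 genes in nhp6ab and 3 of 19 in WT. Proteasome genes with their activator had one in 3 of 31 genes in nhp6ab and 4 of 31 in WT, and the near-identical paralogue pairs in 1 of 23 and 2 of 22. RPN4, the transcription factor that activates proteasome genes, was low in 10 of 10 intervals in nhp6ab and 11 of 12 in WT. In all, 90 of the 172 genes with a WT run were on at least 1 list and 82 on none. Among the latter with long runs were DEF1, MRS6 and ILV5. DEF1, which promotes degradation of stalled RNA polymerase II, had 11 of 12 low in nhp6ab and 11 of 13 in WT. MRS6, a Rab escort protein, had 8 of 10 low in nhp6ab and 10 of 12 in WT. ILV5, of branched-chain amino acid synthesis and on chromosome XII, had 7 of 8 low in nhp6ab and 9 of 9 in WT.

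In most of the 172 genes the run was low in nhp6ab too. The partners of the run intervals had a mean nhp6ab level with a median of 0.41 over the genes, and 129 genes were under 0.5. The WT mean level of the runs had a median of 0.38. The lowest partner mean was that of PHO4, the transcription factor of the phosphate response, with a level of 0.09 in nhp6ab over 2 partners, against 0.30 in WT. In GCN4, the activator of amino acid synthesis genes, named here after its values were seen, the 3 partners had a mean level of 0.12 in nhp6ab and 0.20 in WT, and 4 of 4 intervals were low in nhp6ab and 5 of 5 in WT. Of the 30 genes with the longest WT runs, of 9 or more, 28 had a run in nhp6ab and 27 a partner mean under 0.5. In 14 genes every listed WT interval was a member.

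FAS1 was the clearest departure among the long runs. The gene (YKL182W, XI:100671-106826) encodes the beta subunit of fatty acid synthase. It had 2 of 43 intervals low in nhp6ab, against 21 of 43 in WT, where 15 in a row with midpoints up to 2019 bp had 97 to 220 counts. The 11 partners of the run had 179 to 380 counts in nhp6ab, a mean level of 0.74, where the same WT intervals had 0.37. None of the 11 was low, and the log2 ratio of the summed counts was 1.08 (0.995 to 1.17). The 2 low nhp6ab intervals of the gene lay within the span of the run, centred at 469 and 598 bp. They had 150 and 166 counts in nhp6ab (levels 0.42 and 0.47). Both lay too far from the nearest WT midpoint to be partners, so the partners' range, mean and ratio leave them out. Farther upstream of FAS1 both tables were low, with 62 to 88 counts in the nhp6ab intervals centred at -900 to -683 bp and 114 and 111 in the WT intervals centred at -801 and -667 bp. Closer to the gene, nhp6ab had 271 counts at -522 bp and WT had 158 and 194 at -565 and -470 bp. The ratio contains the low WT counts that selected the run, which raises it, and without a second value per genotype its size has no replicate check. The nhp6ab counts alone place the partners of the run at 0.51 to 1.07 times the nhp6ab median, with the 2 low intervals left out.

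BDF1, the gene of a bromodomain protein that binds acetylated H4 and forms part of the TFIID and SWR1 machinery, had 1 of 13 intervals low in nhp6ab and 10 of 13 in WT. The 9 partners of its run had 192 to 312 counts in nhp6ab and a mean level of 0.70, against 0.39 in WT. It lies on chromosome XII, whose nhp6ab median level was 1.29. CDC39, the scaffold of the CCR4-NOT deadenylation complex, had 8 of 30 low in nhp6ab and 24 of 36 in WT, and 1 of the 6 partners of its run was low. The 2 genes whose partners had a mean level of at least 0.75 were FAR1, the inhibitor of cell division in pheromone response, at 0.83 in nhp6ab against 0.40 in WT, and ASN1 at 0.80 against 0.44. Each of these 2 means rests on 3 partners. In all, 11 of the 172 genes had no low interval in nhp6ab and 27 had no 2 low intervals in a row. Chromosome XII, with its raised nhp6ab levels, holds 19 of the 172 genes. Of these, BDF1, HAP1, SST2, DIP2, CBF5, MAP1, FPR4 and YLR302C were among the 27. SST2, DIP2 and CBF5 were also among the 11.

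**Figure D5:**
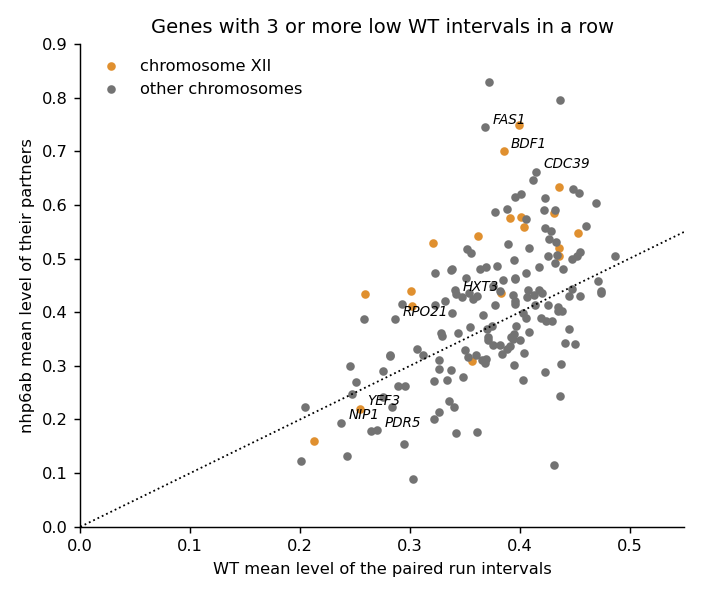
Mean nhp6ab level of the partners against the mean WT level of the same run intervals, 1 point for each of the 172 genes with 3 or more low WT intervals in a row, chromosome XII in orange. The dotted line marks equal levels; FAS1 at 0.74 and BDF1 at 0.70 lie far above it and PDR5 at 0.18 below it.

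Read in the other direction, the low places of nhp6ab were partly those of WT. Of 3495 low nhp6ab intervals beyond 20 kb from the ends, 2782 (79.6%) had a WT interval within 50 bp. The WT partners had a median level of 0.44, and 63.9% of them were members. Among the low nhp6ab intervals, 32.2% lay upstream of a gene, against 26.0% of the members.

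The members were more often narrow than the pooled other intervals, whose widths the tables give between 120 and 160 bp. Of the members, 60.7% were narrower than 160 bp, against 41.3% of the intervals that were not low. At the smallest width of 120 bp were 29.7% of members and 14.5% of the others. Narrowness was not particular to the members: of intervals at WT levels of 0.5 to 0.6, 0.6 to 0.7 and 0.7 to 0.8, 65.0%, 64.9% and 64.3% were narrower than 160 bp. A narrower window collects fewer reads at the same density. Members over noncoding genes were the exception, with 12.6% narrower than 160 bp. The share that overlapped a listed neighbour was alike, at 66.1% for members and 66.2% for the others.

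By chromosome, the share of low WT intervals ran from 3.47% on chromosome X to 6.48% on chromosome XI. On chromosome XII 4.30% of intervals were low in nhp6ab and 5.85% in WT. The 229 paired members there had a median nhp6ab level of 0.44, and 62.0% of their partners were low. On the other chromosomes the median was 0.36 and the share 76.5%.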

How the data were processed

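The authors deposited 1 table per genotype, which gives each nucleosome interval its chromosome, start, end and read count. Per the file headers these are counts, and all are whole, without normalization. Each table is named by both replicates of its genotype and holds 1 count column, so replicates were pooled or combined in a way not given in the sources used here. FastQC, Bowtie and build R64 are named per the submitters' processing notes, without tool versions. The sources used here name no nucleosome caller and no rule for reads with several matches. Of the count columns, 0 were left unused.

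Without chromosome lengths, an end was set at position 1 or at the highest coordinate listed for that chromosome. Genes came from an R64 table of 6431 genes whose strand was taken from the systematic name (1 gene had none); of 466 names on the written lists, 465 matched. An interval belongs to a gene when its midpoint lies in it. Runs are consecutive listed intervals. Log2 ratios were scaled to table totals, with exact conditional binomial 95% intervals; counts have exact Poisson intervals. Both cover counting error alone: reads were amplified by PCR and carry no molecular identifiers. Named were the 30 genes with the longest runs, the 12 lowest members, the 2 lowest of each position class, the 6 highest and 6 lowest ratios among pairs with at least 100 counts, the 2 genes of each list with most members, and 3 intervals on each side of the threshold. The members and lists were chosen with earlier results of these data known. Checks of base composition and uniqueness were not run, since no genome sequence was used here. The scripts were tested on simulated data and run with Python 3.11.15, numpy 2.4.6, pandas 2.3.3 and scipy 1.17.1.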

Additional observations from a re-analysis of the deposited data

How the results depend on the processing

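No paired analysis was possible because each genotype has a single count column for both replicates, and for the same reason no replicate could be left out. Of 65 recomputed values, 34 stayed within the exact binomial 95% interval of the main share or median, or within 1.5 times for a number, and 31 moved. Overlapping neighbours are not independent, so these intervals are too narrow. Under 0.4 times the WT median there were 1655 members, a partner level of 0.27, 89.8% low partners, a median log2 ratio of -0.10 and 87 genes with a run. Under 0.6 times there were 5580 members, 24.4% upstream, 62.5% narrow, a partner level of 0.47, 55.3% low partners, a ratio of 0.076 and 328 genes. With counts per bp, 46.3% of members were narrow, 76.5% had a partner, the partner level was 0.35, 78.8% of partners were low and the ratio was -0.061. With intervals that overlap no neighbour, numbers fell furthest, to 1078 members and 30 genes, with 31.8% upstream, 43.6% narrow, 76.9% with a partner, a partner level of 0.33, 82.6% low partners and a ratio of -0.10; fewer intervals enter by construction. A partner within 25 bp was found for 54.8%. The nhp6ab level per bp gave 0.38 and 73.3% low partners. The ratio was -0.074 scaled to table medians, 0.031 scaled to totals without chromosome XII and -0.040 over partners of equal width. No value moved without chromosome XII, beyond 30 kb from the ends, with one-to-one partners or with the nhp6ab level over its own chromosome median. This setting and equal width were chosen after seeing the data. The count at the cut has a counting error of 6.73%, so membership near it is not firm.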
